A study of Mus musculus with 12 samples.

Results

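Ucp1-positive adipocyte nuclei of the depot labelled mPRAT were compared with adipocyte nuclei of the same library in which no Ucp1 molecule was counted. Nuclei with at least 2000 UMIs (unique molecular identifiers, each counting 1 captured RNA molecule) and at most 10% mitochondrial UMIs were used. An adipocyte nucleus held at least 3 summed UMIs of Adipoq, Plin1, Plin4, Lipe, Cidec and Acsl1, and more of these than of Flt1, Ptprb, Lama2, Dcn, Mrc1 and Ptprc. A nucleus was Ucp1-positive with at least 2 Ucp1 UMIs and Ucp1-zero with none. This gave 1972 Ucp1-positive and 3622 Ucp1-zero nuclei among 6080 mPRAT adipocyte nuclei, out of 119035 barcodes and 46046 adipocyte nuclei in the whole series of 12 libraries.

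The series profiled mouse adipose depots at several ages by single-nucleus RNA sequencing, to compare brown and white depots and their response to cold. Both mPRAT libraries that the classes were taken from came from male C57BL/6J mice on normal chow. One was from mice at room temperature (22 °C) and the other from mice kept at 4 °C for 3 days. Their titles state an age of 6 months and their characteristics 16 weeks, and the labels do not say how many animals were pooled for a library. The abbreviation mPRAT usually stands for medial perirenal adipose tissue. References from mice of the same strain, sex and diet were mPRAT at 1 month (4 weeks) and 2 months (8 weeks) at 22 °C, and, at the same stated ages as the main libraries, iBAT at 22 °C and at 4 °C for 3 days and lPRAT at 22 °C. These abbreviations usually stand for interscapular brown and lateral perirenal adipose tissue.

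Ucp1 encodes the uncoupling protein of brown and beige adipocytes, which lets protons re-enter the mitochondrial matrix without making ATP and so releases heat. In cold, noradrenaline acts on beta-adrenergic receptors, cAMP rises, and both lipolysis and the transcription of thermogenic genes increase. Perirenal fat is known for brown adipocytes that take on a white, unilocular form with age, in which Ucp1 is low or off.

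With 1 library at each temperature there were no replicates. No test was made, and every interval is a 95% interval that covers counting error only. A difference between the libraries also holds any difference between animals, dissections and library preparation. Because the classes were set by Ucp1 counts of the same nuclei, differences between them are a description of the classes. Levels are counts scaled to a total of 1e+06 UMIs (CPM), summed over the nuclei of a class, with Ucp1 left out of the total. Pairs of levels are given as Ucp1-positive against Ucp1-zero, and ratios as log2 ratios of positive over zero CPM unless cold is named. A gene was compared when it reached 20 CPM in 1 of the classes and 20 counts over both, and was called higher or lower from 1.5-fold. A gene that reached 20 CPM in only 1 class entered through the class where it is high, so counts and medians over compared genes are descriptions of those genes, not of a whole list.

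The promoters of Ucp1, of Dio2 and of Cyp2e1 are shown because these genes carry the contrast: the gene that defined the classes, a gene among the most enriched in Ucp1-positive nuclei, and a gene of white adipocytes enriched in Ucp1-zero nuclei. Each window holds 300 bases around the annotated start of the gene in RefSeq on build GRCm38.p6, 5′ to 3′ on the strand of the gene. Capitals mark a match to the cAMP response element TGACGTCA, which the cAMP-activated factor CREB binds. The windows lie at chr8:83290098-83290397 on the plus strand (Ucp1), chr12:90738989-90739288 on the minus strand (Dio2) and chr7:140763569-140763868 on the plus strand (Cyp2e1).
Ucp1: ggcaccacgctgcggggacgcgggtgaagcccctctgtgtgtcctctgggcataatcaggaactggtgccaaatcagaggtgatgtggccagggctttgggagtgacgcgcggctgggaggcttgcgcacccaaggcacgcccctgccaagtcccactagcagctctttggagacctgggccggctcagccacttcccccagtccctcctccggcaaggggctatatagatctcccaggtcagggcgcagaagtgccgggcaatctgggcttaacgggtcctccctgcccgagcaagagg
Dio2: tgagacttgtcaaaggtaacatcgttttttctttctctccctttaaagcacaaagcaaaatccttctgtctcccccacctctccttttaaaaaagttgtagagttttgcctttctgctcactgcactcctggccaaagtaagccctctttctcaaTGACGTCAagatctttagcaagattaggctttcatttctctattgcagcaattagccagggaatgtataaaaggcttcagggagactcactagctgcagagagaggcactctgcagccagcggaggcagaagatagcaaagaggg
Cyp2e1: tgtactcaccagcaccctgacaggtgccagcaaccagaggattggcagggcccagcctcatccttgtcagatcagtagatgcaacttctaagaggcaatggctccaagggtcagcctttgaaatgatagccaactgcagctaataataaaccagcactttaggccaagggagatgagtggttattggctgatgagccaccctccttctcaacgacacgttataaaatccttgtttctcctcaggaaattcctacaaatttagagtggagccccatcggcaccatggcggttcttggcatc

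The Dio2 window held the response element 95 bases before the start, and the windows of Ucp1 and Cyp2e1 held no exact match. Only the full element within the windows was searched, so partial elements and sites outside the windows were not covered. Both strands were searched, and the element reads the same on each. It was found in 1.79% of 32851 RefSeq windows of this length, in 1 of 20 windows of the thermogenic list with Ucp1, for which 15 genes were matched, and in 0 of 12 windows of the white adipocyte list. The nuclear receptor hexamer repeat AGGTCANAGGTCA was in 13 windows (0.0396%) and in none of either list. These matches are a description of the windows. In GENCODE on GRCm38 the genes span chr8:83290352-83298452 (Ucp1), chr12:90724552-90738438 (Dio2) and chr7:140763739-140774987 (Cyp2e1). Their starts differ from those of RefSeq, for Ucp1 only slightly.

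At 22 °C, 827 of 4015 mPRAT adipocyte nuclei were Ucp1-positive, or 20.6% (exact Clopper-Pearson interval 19.4 to 21.9%). At 4 °C the share was 55.4% (53.3 to 57.6%), or 1145 of 2065 nuclei. Ucp1-zero nuclei were 2831 (70.5%) at 22 °C and 791 (38.3%) at 4 °C. The 357 nuclei (8.89%) and 129 nuclei (6.25%) with exactly 1 Ucp1 UMI lie just outside the rule, and the 194 (4.83%) and 131 (6.34%) with exactly 2 lie just inside it. The median Ucp1 count of a positive nucleus was 4 at 22 °C and 6 at 4 °C, with maxima of 53 and 33. The cold library thus held the larger positive share and the larger share of nuclei with 5 to 9 UMIs, 518 of 2065 against 262 of 4015. The plot of Ucp1 UMIs per nucleus shows both distributions.

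**Figure D1:**
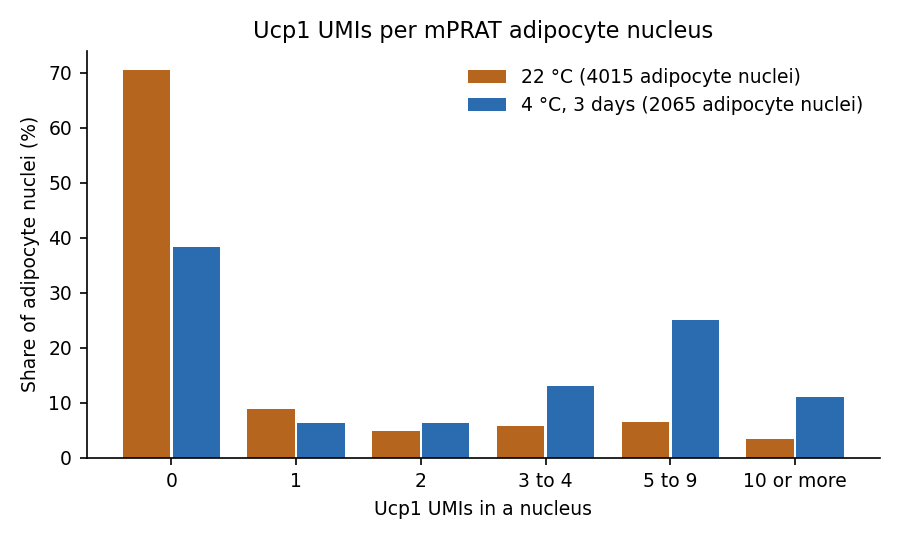
Share of adipocyte nuclei (percent) by the number of Ucp1 UMIs in the nucleus, for mPRAT at 22 °C (4015 nuclei) and at 4 °C for 3 days (2065 nuclei). Nuclei with 0 UMIs made up 70.5% at 22 °C and 38.3% at 4 °C, and each of the 4 bins from 2 UMIs upward held a larger share at 4 °C.

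Depth differed little between the classes. The median was 6499 UMIs in Ucp1-positive and 6537 in Ucp1-zero nuclei at 22 °C, and 4989 and 5033 at 4 °C. Of nuclei with 2000 to 4000, 4000 to 8000 and at least 8000 UMIs, 71.0%, 67.4% and 74.4% were Ucp1-zero at 22 °C, and 37.8%, 36.3% and 45.4% at 4 °C. The deepest nuclei therefore did not hold the smallest zero share in either library. Mean Ucp1 UMIs per nucleus in these bands were 0.708, 1.31 and 1.81 at 22 °C and 2.54, 4.15 and 5.50 at 4 °C. The bands may hold different kinds of nuclei, and the part of depth in the zero share was not tested. After thinning each nucleus to 2000 UMIs, the positive share was 10.1% (9.15 to 11.03%) at 22 °C and 38.5% (36.4 to 40.7%) at 4 °C. Background nuclei were kept nuclei with fewer than 3 UMIs of the adipocyte gate genes and more UMIs of the 6 other-type gate genes. Of these, 0 of 2349 at 22 °C (median 2891 UMIs) and 1 of 362 at 4 °C (median 2823.5 UMIs) held at least 2 Ucp1 UMIs. Any Ucp1 UMI was held by 2.68% and 5.80%. They were shallower than the adipocyte nuclei (medians 6400 and 4925 UMIs), and the source of their Ucp1 molecules was not tested.

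The adipocyte markers were present in both classes. Plin1, which coats lipid droplets, stood at 1035 against 1114 CPM at 22 °C and 928 against 1024 CPM at 4 °C, and Lipe, the hormone-sensitive lipase, at 962 against 1089 CPM at 22 °C and 857 against 1127 CPM at 4 °C. Adipoq, the adipokine adiponectin and a marker fixed for these cells, was lower in Ucp1-positive nuclei, at 137 against 242 CPM at 22 °C and 28.5 against 155 CPM at 4 °C. The droplet proteins Cidec (437 against 1288 CPM at 22 °C and 278 against 1081 CPM at 4 °C) and Plin4 (397 against 1034 CPM at 22 °C and 262 against 958 CPM at 4 °C) were lower there too. Acsl1, an acyl-CoA synthetase, had 5564 against 4218 CPM at 22 °C and 3180.4 against 4166 CPM at 4 °C. These genes chose the nuclei, so their values are given without further reading. Summed over the 6 gate genes, the classes had 8532 and 8985 CPM at 22 °C and 5534 and 8511 CPM at 4 °C.

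The libraries held 11670 barcodes with 49013005 UMIs at 22 °C and 11157 with 77838918 at 4 °C, of which 7258 and 2738 nuclei were kept. They shared 33 barcodes, 2 of them among adipocytes. Of barcodes over the mitochondrial limit that otherwise passed as adipocytes, 52 were at 22 °C and 1043 at 4 °C. The classes held 6045393 (positive) and 21933342 (zero) UMIs at 22 °C and 6467174 and 4704256 at 4 °C. A UMI of the 6 other-type gate genes was found in 25.6% of positive and 28.8% of zero nuclei at 22 °C, and in 8.65% and 8.60% at 4 °C.

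At 22 °C, 6936 genes were compared between the classes, of which 881 (12.7%) were at least 1.5-fold higher and 1077 (15.5%) at least 1.5-fold lower in Ucp1-positive nuclei. At 4 °C the counts were 1349 (18.8%) and 1419 (19.8%) of 7175 genes. The median log2 ratio over all genes was 0.01 at 22 °C and -0.03 at 4 °C. The temperatures share no library. Of 834 genes higher at 22 °C that were compared at both, 677 (81.2%) were also called higher at 4 °C, which is 60.2% of the 1124 called there. Of 932 genes lower at 22 °C, 753 (80.8%) were lower at 4 °C, which is 61.9% of 1216. Calls in opposite directions numbered 4 and 5.

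Genes of thermogenesis were higher in Ucp1-positive nuclei at both temperatures. Of 21 listed genes apart from Ucp1, 18 were compared at 22 °C, with 17 higher, 1 lower and a median log2 ratio of 2.15, beside 12.7% and 15.5% of all genes. At 4 °C, 18 of 19 compared genes were higher and none lower, with a median of 2.57, beside 18.8% and 19.8% of all genes. At each temperature 4 of the compared genes reached 20 CPM only in the positive class. Without a CPM limit, but still from 20 counts, 18 of 20 genes were higher and 2 lower at 22 °C, and no further gene entered at 4 °C. Cidea, a lipid droplet protein of brown adipocytes, had 1233 against 259.8 CPM at 22 °C and 908 against 156 CPM at 4 °C. Its log2 ratio was 2.25 (2.20 to 2.30) at 22 °C and 2.54 (2.43 to 2.65) at 4 °C. Dio2, the deiodinase that activates thyroid hormone within the cell, had 155 against 18.1 CPM at 22 °C and 262 against 37.4 CPM at 4 °C. The ratio was 3.10 (2.93 to 3.28) and 2.81 (2.59 to 3.04). In both genes the positive class was the high class at each temperature. Within the zero class Dio2 was higher at 4 °C than at 22 °C, and Cidea was lower.

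Ppargc1a, the coactivator of mitochondrial biogenesis, stood at 1451 against 331 CPM at 22 °C and 2138 against 428 CPM at 4 °C, a ratio of 2.13 and 2.32. Its relative Ppargc1b stood at 3336 against 827 CPM at 22 °C and 2871 against 484 CPM at 4 °C, a ratio of 2.01 and 2.57. Both ratios were close to those of Cidea. Esrrg, an orphan nuclear receptor that drives oxidative genes, had 2586 against 659 CPM at 22 °C and 2896 against 411 CPM at 4 °C. Ppara, the fatty acid-sensing nuclear receptor, had 4103 against 926 CPM at 22 °C and 2584 against 568 CPM at 4 °C. The ratios were 1.97 and 2.82 for Esrrg and 2.15 and 2.19 for Ppara.

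Gk, glycerol kinase, which allows glycerol to be re-esterified in the cell, had 1919 against 282 CPM at 22 °C and 2034 against 298 CPM at 4 °C, a ratio of 2.77 at both temperatures. Pank1, which makes the precursor of coenzyme A, had 1241 against 230.0 CPM at 22 °C and 1508 against 210.0 CPM at 4 °C. Cpt1b, which loads fatty acids onto carnitine for mitochondrial import, had 522 against 103 CPM at 22 °C and 685 against 82.9 CPM at 4 °C. Acot11, an acyl-CoA thioesterase of brown fat, had 314 against 50.6 CPM at 22 °C and 832 against 82.9 CPM at 4 °C, with ratios of 2.63 and 3.33. Every one of these enzymes was high in Ucp1-positive nuclei of both libraries.

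The mitochondrial subunits Cox7a1 and Cox8b, forms found in brown fat and muscle, were higher by 2.38 and 2.28 at 22 °C and by 3.11 and 2.23 at 4 °C. The potassium channel Kcnk3 (1.59 and 2.11), the proton channel Otop1 (2.14 and 2.88) and the mitochondrial protein Letmd1 (1.86 and 2.53) were higher as well. Elovl3, a cold-responsive fatty acid elongase, had 11.6 against 1.19 CPM at 22 °C and 158 against 14.0 CPM at 4 °C. It was too low to be compared at 22 °C, and at 4 °C its ratio was 3.49 (3.13 to 3.88). Elovl3 was therefore a gene seen mainly in the positive nuclei of the cold library.

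A few thermogenic genes differed less or in the other direction. Prdm16, a coregulator of brown fat identity, had 959.9 against 512 CPM at 22 °C and 1005 against 416 CPM at 4 °C, and Ebf2, which marks brown and beige precursors, had 2020.0 against 1171 CPM at 22 °C and 822 against 424 CPM at 4 °C. Their ratios at 22 °C, 0.91 and 0.79, were below the list's median. Adrb3, the main beta-adrenergic receptor of mouse adipocytes, was lower in Ucp1-positive nuclei at 22 °C (347 against 611 CPM, -0.82, interval -0.88 to -0.75). At 4 °C it stood at 401 and 412 CPM, a ratio of -0.04 (-0.12 to 0.05) that includes 0. Zic1 and Lhx8, regulators expressed in classical brown fat, were at or below 1.14 CPM in all 4 classes and were not compared.

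**Figure D2:**
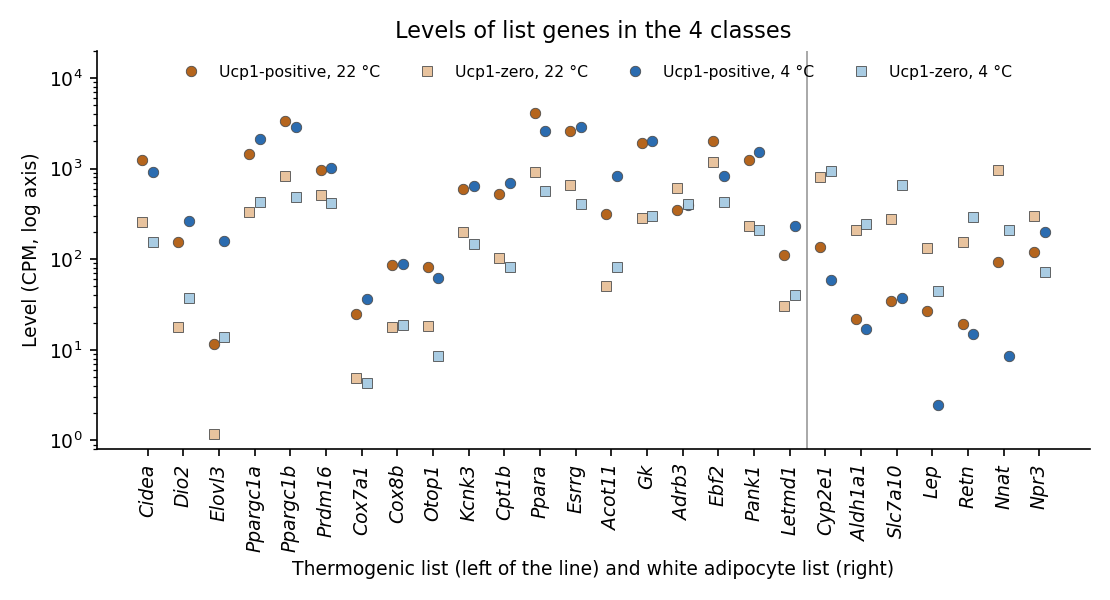
Level (CPM, log axis) of 19 thermogenic and 7 white adipocyte genes in Ucp1-positive (circles) and Ucp1-zero nuclei (squares) at 22 °C and 4 °C. Each point is the sum over 1 class of 1 library. The circles lie above the squares for the thermogenic genes other than Adrb3, and below them for the white genes, except Npr3 at 4 °C.

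Of 22 listed regulators of transcription, 8 were higher and 4 lower at 22 °C (median 0.32), beside 12.7% and 15.5% of all genes. At 4 °C 9 were higher and 3 lower (median 0.39), beside 18.8% and 19.8%. The list shares Ppara, Ppargc1a, Ppargc1b, Esrrg, Prdm16 and Ebf2 with the thermogenic list. Esrra, the estrogen-related receptor of mitochondrial genes, had 242 against 111 CPM at 22 °C and 315 against 141 CPM at 4 °C, and Cebpb, a cAMP-responsive factor, had 158 against 62.8 CPM at 22 °C and 233 against 103 CPM at 4 °C. Both were called higher at both temperatures. Pparg, the master regulator of adipocytes, was 4860.1 against 3678 CPM at 22 °C and 3354 against 3392 at 4 °C, with ratios of 0.40 and -0.02.

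Regulators on the other side were called lower in Ucp1-positive nuclei at both temperatures in 2 cases. Zfp423, a repressor of the thermogenic programme in white adipocytes, had 305 against 547 CPM at 22 °C and 221 against 379 CPM at 4 °C, and Rxra, the partner of many nuclear receptors, had 26.5 against 64.4 CPM at 22 °C and 26.0 against 54.2 CPM at 4 °C. Klf15 was lower at 22 °C (-1.14), and its ratio at 4 °C was -0.56. Tle3, a corepressor that favours white genes, had ratios of -0.03 at 22 °C and -0.93 at 4 °C. Nfia, which acts early in brown fat, had 5027 against 3957 CPM at 22 °C and 6798 against 3794 CPM at 4 °C, called higher at 4 °C alone.

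Of 18 adrenergic signalling genes compared at 22 °C, 6 were higher and 2 lower (median 0.46), beside 12.7% and 15.5% of all genes. Of 17 at 4 °C, 9 were higher and 2 lower (median 0.75), beside 18.8% and 19.8%, so the lower calls were no more frequent than over all genes. Among receptors, Adra1a, an alpha-adrenergic receptor, was the most enriched, at 1078 against 266 CPM at 22 °C and 1152 against 259 CPM at 4 °C. Its ratios were 2.02 (1.97 to 2.07) and 2.15 (2.07 to 2.24), while the beta receptor Adrb1 had 0.58 and 0.96. Downstream, Gnas, which encodes the stimulatory G protein subunit, had 1142 against 284 CPM at 22 °C and 1366 against 235 CPM at 4 °C.

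The adenylyl cyclases, which make cAMP, were split between the classes. Adcy3 was higher in Ucp1-positive nuclei, at 221 against 82.0 CPM at 22 °C and 539 against 81.4 CPM at 4 °C, a ratio of 1.43 (1.33 to 1.54) and 2.73 (2.57 to 2.88). Adcy5 was lower, at 49.0 against 349 CPM at 22 °C and 6.03 against 131 CPM at 4 °C, a ratio of -2.84 (-3.01 to -2.67) and -4.44 (-4.94 to -3.97). The positive class was thus the high class for Adcy3 and the low class for Adcy5 in both libraries. Nr4a1, an immediate target of cAMP signalling, had 123 against 22.6 CPM at 22 °C and 40.0 against 5.53 CPM at 4 °C, with the higher value in the positive class at each temperature. Pde3b, a phosphodiesterase that degrades cAMP, was 2694 against 3559.6 CPM at 22 °C and was called lower at 4 °C (1463 against 3081 CPM).

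Most listed genes of fatty acid oxidation, the citric acid cycle and the respiratory chain had higher levels in Ucp1-positive nuclei. For fatty acid oxidation, 11 of 14 genes were higher at 22 °C (median 1.18) and 12 at 4 °C (median 1.25), with none lower. Over all genes 12.7% were higher at 22 °C and 18.8% at 4 °C. Slc25a20, the carrier of acylcarnitines into mitochondria, had 434 against 135 CPM at 22 °C and 639 against 222 CPM at 4 °C. Hadha and Hadhb, the subunits of the trifunctional protein, had ratios of 1.50 and 1.66 at 22 °C and of 1.82 and 1.89 at 4 °C. Acaa2, the last thiolase of the cycle, had 179.8 against 62.3 CPM at 22 °C and 198 against 39.1 CPM at 4 °C. Cpt2, the inner-membrane carnitine palmitoyltransferase, was not called at either temperature.

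All 9 citric acid cycle genes were higher at both temperatures, with medians of 1.26 and 1.61, beside 12.7% and 18.8% of all genes. Ogdh, a subunit of the oxoglutarate dehydrogenase complex, had 820.0 against 291 CPM at 22 °C and 1126 against 286 CPM at 4 °C. Sucla2, a subunit of succinyl-CoA synthetase, had 590.0 against 168 CPM at 22 °C and 347 against 114 CPM at 4 °C, the largest ratio of the list at 22 °C (1.81, interval 1.75 to 1.88). At the other end Fh1, fumarase, had ratios of 0.72 and 0.74.

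Nuclear-encoded respiratory chain genes were higher by smaller ratios. At both temperatures 21 of 22 were higher and none lower, with medians of 0.81 and 1.08, beside 12.7% and 18.8% of all genes higher. Of the 22 genes, 5 at 22 °C and 1 at 4 °C reached 20 CPM only in the positive class, and all 22 entered without a CPM limit, with the same counts. Cycs, cytochrome c, had 48.3 against 16.6 CPM at 22 °C and 69.1 against 25.3 CPM at 4 °C, and Cox5a of complex IV had 104 against 41.5 CPM at 22 °C and 145 against 47.6 CPM at 4 °C. Subunits of complex I ranged from 0.61 (Ndufs1) to 0.90 (Ndufv1) at 22 °C. The exception was Atp5c1 of the ATP synthase, with ratios of 0.26 and 0.48. The share of UMIs from the mitochondrial genome had a median of 0.347% in positive and 0.137% in zero nuclei at 22 °C. At 4 °C the medians were 0.759% and 0.741%.

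Most genes of the glucose list, which also holds pyruvate dehydrogenase kinases, Pcx and Pck1, had higher levels in Ucp1-positive nuclei. Of 13 genes compared at 22 °C, 9 were higher and 1 lower (median 0.85), beside 12.7% and 15.5% of all genes. Of 15 at 4 °C, 11 were higher and 2 lower (median 1.05), beside 18.8% and 19.8%. Pdk4, the kinase that shuts off pyruvate dehydrogenase, had 1220.4 against 190.0 CPM at 22 °C and 955 against 174 CPM at 4 °C, a ratio of 2.68 (2.63 to 2.74) and 2.46 (2.35 to 2.56). Hk2, a hexokinase, had 818 against 356 CPM at 22 °C and 1262 against 362 CPM at 4 °C, and Pkm, a pyruvate kinase, had 249.9 against 75.5 CPM at 22 °C and 576 against 109 CPM at 4 °C. Pcx, pyruvate carboxylase, was the gene called lower at both temperatures, at 660.0 against 1181 CPM at 22 °C and 836 against 1724 CPM at 4 °C. Slc2a4, the insulin-responsive glucose transporter, had ratios of 0.33 and 1.05, and Pck1 ratios of 0.00 and -1.05.

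Heat-producing routes other than Ucp1 were measured in part, since 5 of 16 listed genes reached the limits at 22 °C and 8 at 4 °C. At 4 °C 8 listed genes reached 20 CPM in the positive class and 4 in the zero class. Members thus entered through the class where they were high, and no count or median over those compared is given. Atp2a2, the calcium pump of the calcium cycle, had 438 against 228 CPM at 22 °C and 535 against 247 CPM at 4 °C, and Ryr2, a calcium release channel, had 118 against 22.4 CPM at 22 °C and 42.1 against 2.98 CPM at 4 °C. Ckb, the creatine kinase of the creatine cycle, was at 2.98 and 3.01 CPM at 22 °C. At 4 °C it stood at 27.5 CPM in positive and 2.76 CPM in zero nuclei, a ratio of 3.32 (2.51 to 4.25).

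Lipogenic genes were present in both classes. Of 20 genes, 7 were higher and none lower at 22 °C (median 0.18), beside 12.7% and 15.5% of all genes. At 4 °C 5 were higher and 6 lower (median -0.08), beside 18.8% and 19.8%. Elovl6, a fatty acid elongase, was the most enriched in Ucp1-positive nuclei, at 1261 against 257 CPM at 22 °C and 3459.9 against 1005 CPM at 4 °C. Acaca and Acly, for the first steps from citrate to fatty acid, had ratios of 0.55 and 0.84 at 22 °C but -0.12 and 0.06 at 4 °C. Scd1, the stearoyl-CoA desaturase, had 401 against 349 CPM at 22 °C and 477 against 963 CPM at 4 °C, and Slc25a1, the mitochondrial citrate exporter, had 30.4 against 39.4 CPM at 22 °C and 47.9 against 139.7 CPM at 4 °C. At 4 °C both were lower in positive nuclei, with ratios of -1.02 and -1.54. Scd2 went to the other side, at 27.1 against 31.3 CPM at 22 °C and 175 against 74.4 CPM at 4 °C.

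Of 15 genes for the handling of stored lipid compared at 22 °C, 6 were higher and none lower (median 0.37), beside 12.7% and 15.5% of all genes. Of 16 at 4 °C, 6 were higher and 3 lower (median 0.13), beside 18.8% and 19.8%, and the lower share is near that of all genes. The droplet proteins Plin2 (1.27 and 1.51) and Plin5 (1.49 and 2.22), the latter a link between droplets and mitochondria, were higher at both temperatures. Fabp3, the heart-type fatty acid binding protein, had 69.8 against 6.88 CPM at 22 °C and 138 against 12.5 CPM at 4 °C. Acsl5 had 92.3 against 24.6 CPM at 22 °C and 811 against 53.8 CPM at 4 °C. The transporter Slc27a1 had 409 against 570.3 CPM at 22 °C and 330.1 against 1351 CPM at 4 °C, with the zero class at 4 °C as the highest value. Pnpla2, the triglyceride lipase, and Lpl, lipoprotein lipase, were not called at either temperature.

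**Figure D3:**
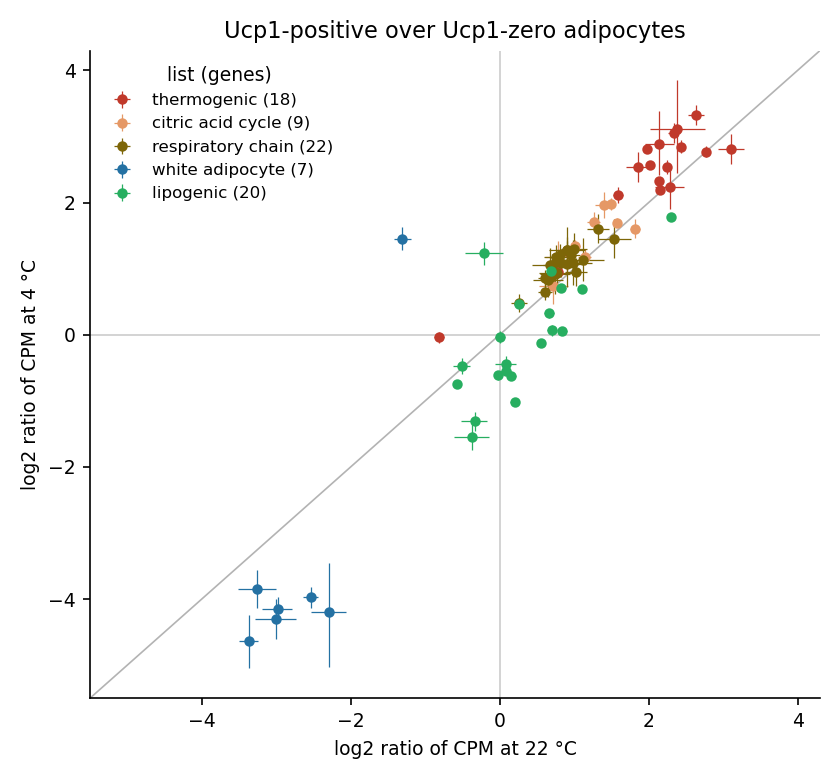
log2 ratio of CPM of Ucp1-positive over Ucp1-zero nuclei at 22 °C (horizontal) and 4 °C (vertical) for the genes of 5 lists compared at both temperatures; lines are 95% counting intervals and the diagonal marks equal ratios. The white adipocyte genes lie at the lower left, apart from Npr3 at -1.31 and 1.45, and the thermogenic genes at the upper right, apart from Adrb3.

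Genes of white adipocytes were lower in Ucp1-positive nuclei. Of 9 listed, 7 were compared at each temperature: all 7 were lower at 22 °C (median -2.98), and 6 were lower and 1 higher at 4 °C (median -4.15). Over all genes 15.5% were lower at 22 °C, and 19.8% were lower and 18.8% higher at 4 °C. Of the compared genes 1 at 22 °C and 4 at 4 °C reached 20 CPM only in the zero class. Of the 3 that reached it in both classes at 4 °C, 2 were lower and 1 higher. Without a CPM limit 9 of 9 were lower at 22 °C, and no further gene entered at 4 °C. Cyp2e1, a cytochrome P450 that marks a class of white adipocytes, had 138 against 799 CPM at 22 °C and 59.4 against 931 CPM at 4 °C. Its ratio was -2.54 (-2.64 to -2.44) and -3.97 (-4.13 to -3.82). Slc7a10, an amino acid transporter of white adipocytes, had 34.9 against 275 CPM at 22 °C and 37.3 against 663 CPM at 4 °C, and Aldh1a1, which makes retinoic acid, had 21.8 against 208 CPM at 22 °C and 17.0 against 243 CPM at 4 °C. In both libraries Cyp2e1 and Slc7a10 were high in the zero class and low in the positive class. Aldh1a1 had the same order, but at 4 °C it was also found in many background nuclei.

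Lep, the satiety hormone leptin, had 26.963 against 132 CPM at 22 °C and 2.47 against 45.1 CPM at 4 °C, and Retn, resistin, had 19.2 against 154 CPM at 22 °C and 14.8 against 291 CPM at 4 °C. Nnat, neuronatin, had 94.0 against 971 CPM at 22 °C and 8.50 against 210.2 CPM at 4 °C. All of these were lower in the positive class in each library, with ratios of -2.29, -3.00 and -3.37 at 22 °C and of -4.19, -4.29 and -4.63 at 4 °C. Npr3, the clearance receptor for natriuretic peptides, had 121 against 299 CPM at 22 °C and 199 against 72.5 CPM at 4 °C, with ratios of -1.31 (-1.42 to -1.20) and 1.45 (1.28 to 1.63). The order of the classes for Npr3 was therefore opposite at the temperatures. Sncg and Mest were too low to be compared.

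Among secreted factors, 6 of 9 were lower and none higher at 22 °C (median -2.29), and 6 were lower and 1 higher at 4 °C (median -3.10). Over all genes 15.5% were lower and 12.7% higher at 22 °C, and 19.8% and 18.8% at 4 °C. At each temperature 3 of the 9 compared genes reached 20 CPM only in the zero class. Without a CPM limit 1 of 10 was higher and 6 lower at 22 °C, and 4 of 12 higher and 6 lower at 4 °C. The medians depend on the settings. At 22 °C the median was -1.77 without a CPM limit and -1.24 at 50 CPM. At 4 °C it was -1.58 without a CPM limit and -3.69 with at most 5% mitochondrial UMIs. The list shares Lep and Retn with the white list. Igf1, insulin-like growth factor, had 84.7 against 418 CPM at 22 °C and 28.5 against 595 CPM at 4 °C, and Cfd, adipsin, had 113 against 267 CPM at 22 °C and 33.2 against 285 CPM at 4 °C. Slit2, an axon guidance factor, had 3.80 against 36.2 CPM at 22 °C and 28.1 against 233 CPM at 4 °C. The zero class was high for all of these at both temperatures. Vegfa, the growth factor of blood vessels, was the gene called higher at 4 °C, at 619 against 488 CPM at 22 °C and 1331 against 608 CPM at 4 °C. Nrg4, a brown fat neuregulin, was not called, at 2309.9 against 2065 CPM at 22 °C and 2062 against 2231 CPM at 4 °C.

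Amino acid, insulin and clock genes were called at shares that can be read beside those of all genes, 12.7% higher and 15.5% lower at 22 °C and 18.8% and 19.8% at 4 °C. In branched-chain amino acid breakdown, 1 of 13 genes was higher and 3 lower at 22 °C, and 2 were higher and 2 lower at 4 °C, each with a median of -0.20. Bcat2, the mitochondrial transaminase that starts the pathway, had 21.008 against 95.8 CPM at 22 °C and 29.2 against 149 CPM at 4 °C, and Ivd, isovaleryl-CoA dehydrogenase, had 60.5 against 125 CPM at 22 °C and 106 against 234 CPM at 4 °C. Of 7 insulin signalling genes, Irs1 (-0.62 and -1.18) and Pik3r1 (-0.84 and -1.95) were called lower at both temperatures, and Irs2 was called higher at 22 °C (0.69) and not at 4 °C (0.45). Of the clock genes, 2 of 14 were higher and 1 lower at 22 °C and 3 of 16 higher and 3 lower at 4 °C. Medians were -0.06 and 0.22 for insulin signalling and -0.09 and 0.16 for the clock. These medians at 22 °C moved with the setting. Without nuclei holding other-type UMIs the insulin median was 0.11, and at a limit of 50 CPM the clock median was -0.43.

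The genes with the highest ratios at 22 °C, chosen by size among those with at least 50 CPM, were Asic2, Lgr6, Lncbate10, Fabp3, Ackr3, Dio2, Sept9, Gk, Slc27a2, Pdk4, Acot11 and Rbfox1. Lgr6, an R-spondin receptor, had 204 against 16.3 CPM at 22 °C and 478 against 25.9 CPM at 4 °C, a ratio of 3.64 (3.47 to 3.82) at 22 °C. Lncbate10, a long noncoding RNA known from brown fat, had 62.2 against 5.33 CPM at 22 °C and 173 against 12.1 CPM at 4 °C. Slc27a2, an acyl-CoA synthetase and fatty acid transporter, had 210.1 against 31.8 CPM at 22 °C and 216 against 13.6 CPM at 4 °C, and Ackr3, a scavenging chemokine receptor, had 111 against 11.9 CPM at 22 °C and 134 against 8.93 CPM at 4 °C. These genes lay on the same side at both temperatures. Asic2, an acid-sensing ion channel, had 51.1 against 2.87 CPM at 22 °C and 0.464 and 0.213 CPM at 4 °C, below the limit. Of its 309 counts in the positive class at 22 °C, 301 (97.4%) came from 1 nucleus, so this ratio describes that nucleus and not the class. The counting intervals do not cover such spread between nuclei.

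At 4 °C the highest ratios belonged to Dgkg, Gmpr, Me3, Lgr6, Ripor2, Cmah, Mfsd2a, Slc27a2, Cabcoco1, Ptgds, Acsl5 and Ackr3. Dgkg, a diacylglycerol kinase, stood at 87.8 CPM in positive and 1.70 in zero nuclei at 4 °C (5.69, interval 4.70 to 6.91), and at 2.48 and 1.28 CPM at 22 °C. Gmpr, GMP reductase, had 48.3 against 5.88 CPM at 22 °C and 267 against 8.29 CPM at 4 °C, and Mfsd2a, a transporter of lysophospholipids, had 6.78 against 0.729 CPM at 22 °C and 82.3 against 5.10 CPM at 4 °C. Ptgds, a prostaglandin D synthase, had 4.14 against 0.547 CPM at 22 °C and 58.4 against 3.83 CPM at 4 °C. The cold positive class was the highest of the 4 for each of them. Me3, the mitochondrial malic enzyme, had 104 against 26.2 CPM at 22 °C and 265 against 10.6 CPM at 4 °C.

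The lowest ratios at 22 °C were those of Mageb18, Rgs7bp, Chst1, Chrdl1, Olfr1033, Ednra, Pak3, Kcnma1, Cachd1, Trhde, Auts2 and Col15a1. At 4 °C they were those of Ofcc1, Cyp2f2, Chst1, Dock11, Car3, Olfr1033, Dtna, Atp2b4, Nnat, Trabd2b, Trhde and B3galt2. Mageb18 had 0.827 against 127 CPM at 22 °C and 0.464 against 37.2 CPM at 4 °C, a ratio of -7.26 (-8.88 to -6.03) and -6.33 (-8.62 to -4.75), where the positive class at 4 °C rests on 3 counts. Few nuclei carried it: the 2776 counts of the zero class at 22 °C came from 117 of 2831 nuclei, and 1 nucleus with exactly 1 Ucp1 UMI, in neither class, held 619 counts. With at least 1 Ucp1 UMI for a positive nucleus its ratio at 22 °C was -0.70, and without the deepest 5% of nuclei -5.26. Trhde, which degrades thyrotropin-releasing hormone, had 10.8 against 135 CPM at 22 °C and 14.4 against 333 CPM at 4 °C, and Ednra, an endothelin receptor, had 4.30 against 70.2 CPM at 22 °C and 4.33 against 72.3 CPM at 4 °C. Car3, carbonic anhydrase of adipocytes, had 1424 against 4269.9 CPM at 22 °C and 135 against 4125 CPM at 4 °C. The positive class was the low class for all of these, and for Car3 the cold positive class was far below the other classes.

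Markers of other cell types were low but present in the adipocyte classes. Summed over each list, stromal progenitor markers were at 129 CPM in positive and 338 CPM in zero nuclei at 22 °C and at 29.7 and 176 CPM at 4 °C. Adrenal cortex markers were at 17.9 and 79.2 CPM at 22 °C and at 122 and 214 CPM at 4 °C, and Schwann cell markers at 40.9 and 50.4 CPM and at 36.8 and 91.6 CPM. These 3 lists were higher in the zero class at both temperatures. Endothelial markers were at 59.4 and 45.7 CPM and at 32.3 and 26.997 CPM, and macrophage markers at 52.9 and 54.2 CPM and at 14.5 and 15.3 CPM. Mural markers were at 16.9 and 32.2 CPM and at 28.9 and 24.9 CPM, and mesothelial markers at 11.7 and 5.47 CPM and at 22.7 and 19.6 CPM. Of the genes named for low ratios, Col15a1 is itself a stromal marker. At 22 °C, Kcnma1 and Asic2 were also higher in barcodes that failed the adipocyte gate, at 154.6 and 67.8 CPM. Their part in the class differences was not tested.

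Leaving out every gene that was higher in barcodes failing the gate, an alternative chosen after seeing the data, left 4029 genes at 22 °C. Of these, 803 (19.9%) were higher and 647 (16.1%) lower in Ucp1-positive nuclei. At 4 °C it left 5409 genes, with 1280 higher and 968 lower. Of the 24 genes named above for their ratios, 22 were left at 22 °C and 24 at 4 °C.

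The difference between nuclei with 0 and with more Ucp1 UMIs was not confined to the highest counts. At 22 °C the thermogenic list had medians over the zero class of 1.53 in nuclei with 1 Ucp1 UMI, 2.04 with 2, 2.07 with 3 to 4, 2.25 with 5 to 9 and 2.14 with 10 or more. At 4 °C the medians were 1.83, 2.60, 2.59, 2.61 and 2.68 in the same order. From 2 UMIs upward the thermogenic medians thus lay close together. White adipocyte medians were lower at each higher count. In the same order they were -1.30, -2.42, -2.49, -3.10 and -3.50 at 22 °C, and -1.14, -3.32, -3.59, -4.04 and -4.79 at 4 °C. The plot of list medians by Ucp1 count shows these values. Depth differed between the bins. Nuclei with 2 and with 10 or more Ucp1 UMIs had medians of 5414.5 and 9049 UMIs at 22 °C, and 3999 and 6966 at 4 °C. The part of depth in these medians was not tested.

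**Figure D4:**
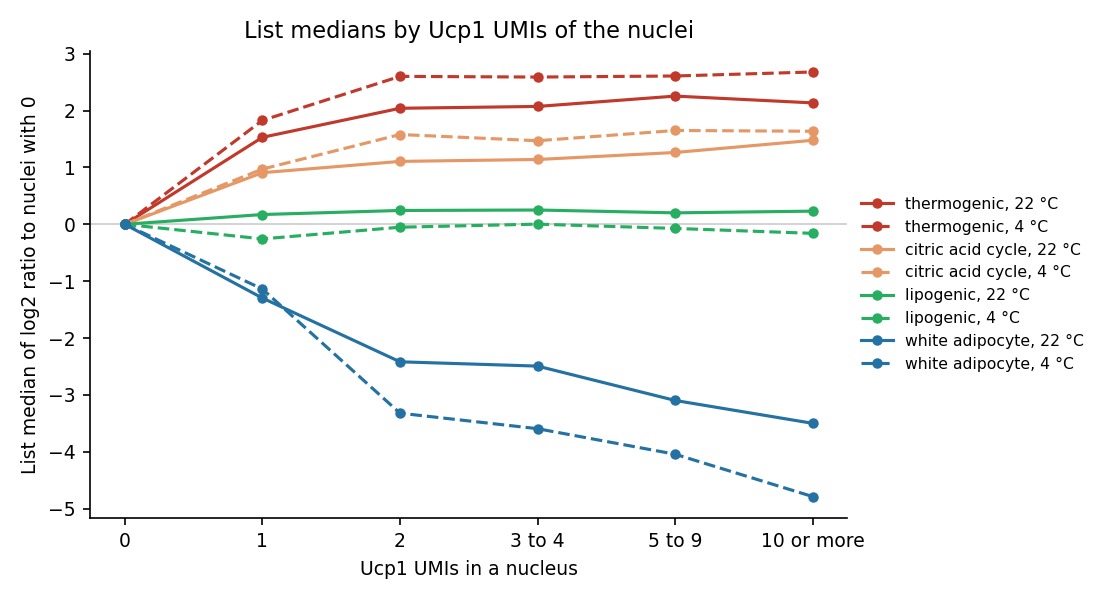
Median log2 ratio of 4 gene lists over nuclei with 0 Ucp1 UMIs (vertical), by the number of Ucp1 UMIs in a nucleus (horizontal), at 22 °C (solid) and 4 °C (dashed). The thermogenic and citric acid cycle lists lie above 0 from 1 UMI on, the lipogenic list stays between -0.26 and 0.25, and the white list lies below 0 throughout.

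Shares of nuclei with a molecule of a gene separated the classes at equal depth. After thinning to 2000 UMIs, Cidea was found in 83.3% of positive and 30.0% of zero nuclei at 22 °C, against 3.49% of background nuclei. At 4 °C the shares were 76.7%, 20.4% and 4.97%. Esrrg was found in 94.8% and 41.2% at 22 °C (background 8.00%) and in 97.8% and 30.2% at 4 °C (11.9%). Zero nuclei as a class therefore held both transcripts above the background share. A count of 0 can be a missed molecule. After thinning, 77.9% of positive nuclei at 22 °C and 91.9% at 4 °C still held a Ucp1 UMI. These nuclei were chosen for at least 2 Ucp1 UMIs, so the shares do not give the rate of missed molecules in other nuclei. Whether the zero class mixes nuclei with and without Ucp1 RNA was not tested. Dio2 was found in 20.2% of positive and 2.61% of zero nuclei at 22 °C (background 0.426%) and in 35.9% and 6.95% at 4 °C (0.829%).

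Among white genes, Cyp2e1 was found in 16.0% of positive and 56.0% of zero nuclei at 22 °C, with 7.66% in the background. At 4 °C the shares were 6.03%, 66.4% and 3.87%. Without thinning, at least 2 Cyp2e1 UMIs were in 15.8% of positive and 62.6% of zero nuclei at 22 °C and in 5.41% and 69.7% at 4 °C. Cyp2e1 was thus less frequent in positive nuclei by either measure. At 4 °C its thinned share in positive nuclei (4.72 to 7.56%) overlapped that of the background (2.13 to 6.40%) and was not read as expression. Acaca, the lipogenic carboxylase, was found in 95.2% and 89.0% at 22 °C and in 96.1% and 91.7% at 4 °C, with background shares of 35.8% and 34.3%. Aldh1a1 at 4 °C was found in 27.2% of zero nuclei, 2.01% of positive nuclei and 39.8% of background nuclei. The background nuclei carried markers of other cell types, and the source of their Aldh1a1 was not tested.

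Cold within each class was compared next, between libraries of different animals. The classes were drawn anew by Ucp1 in each library, and Ucp1-positive nuclei were 20.6% at 22 °C and 55.4% at 4 °C. A cold ratio within a class thus compares different sets of nuclei, not a response of the same cells. Any shift of cells between the classes was not tested. In Ucp1-positive nuclei 6949 genes were compared, with 1115 (16.0%) higher and 907 (13.1%) lower at 4 °C. In Ucp1-zero nuclei 791 (11.2%) were higher and 711 (10.0%) lower of 7090. The median over all genes was -0.03 in positive and -0.02 in zero nuclei. Both comparisons use the same pair of libraries, so their values stand side by side without an overlap.

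Genes known from other cell types were among those with the largest cold ratios. In positive nuclei the lowest included Bank1, a B cell gene (135 CPM at 22 °C and 0.464 at 4 °C, 3 counts), Prkcb, Dock2 and Arhgap15. The highest included Upk1b (4.14 and 74.1 CPM), Tmprss2, Wfdc2 and Sprr1a, genes of epithelia. Summed B cell markers were at 212 and 201 CPM in positive and zero nuclei at 22 °C and at 1.86 and 2.76 CPM at 4 °C. Epithelial and kidney markers were at 7.94 and 17.8 CPM at 22 °C and at 128 and 167 CPM at 4 °C, and T cell markers at 66.0 and 82.9 CPM and at 13.5 and 14.0 CPM. The B cell markers Ms4a1, Cd79b and Pax5 were at 0 in the zero class at 4 °C. These markers moved with the library in both classes, and their part in the cold ratios was not tested.

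Without genes higher in barcodes failing the gate, 9 of the 24 genes with the highest and lowest cold ratios in positive nuclei were left. Higher were Dgkg, Pde10a, Iigp1 and Abcb1b, and lower were Tmem132b, Lctl, Nnat, Car3 and Vim. Tmem132b stood at 235 CPM at 22 °C and 6.80 at 4 °C in positive and at 94.5 and 8.72 CPM in zero nuclei. In zero nuclei 4 were left: Ofcc1 higher, at 4.29 CPM at 22 °C and 78.2 at 4 °C, and Slc14a2, Ntrk3 and Tmem132b lower. Ntrk3, a neurotrophin receptor, had 4099 CPM at 22 °C and 581 at 4 °C in positive nuclei and 1519.7 and 74.6 CPM in zero nuclei. Slc14a2, a urea transporter, was at 173 CPM at 22 °C and at a count of 0 at 4 °C in zero nuclei, and at 43.5 and 0.309 CPM in positive nuclei. The zero-class counts at 22 °C came from 56 of 2831 nuclei, and 245 of the 263 counts in the positive class from 1 nucleus. Abcb1b also rested on few nuclei, with 460 counts in 25 of 1145 positive nuclei at 4 °C.

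Lipogenic genes were higher at 4 °C in both classes. In positive nuclei 14 of 20 were higher and 1 lower (median 0.77), beside 16.0% and 13.1% of all genes. In zero nuclei 15 were higher and none lower (median 1.25), beside 11.2% and 10.0%. Elovl6 was higher by 1.46 in positive and 1.97 in zero nuclei, and Me1, malic enzyme, by 1.33 and 1.50. Acly was higher by 1.10 (1.04 to 1.16) and 1.88 (1.82 to 1.93), and Scd1 by 0.25 (0.17 to 0.33) and 1.47 (1.41 to 1.52). The zero-class values were the larger for these last genes, and the difference between the classes was not tested. Dgat2, for the last step of triglyceride synthesis, was lower in positive nuclei (-0.74) and had -0.16 in zero nuclei.

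The thermogenic list apart from Ucp1 had small cold ratios. In positive nuclei 4 of 19 genes were higher and 2 lower (median 0.16), near the 16.0% and 13.1% of all genes. In zero nuclei 2 of 15 were higher and 5 lower (median -0.32), beside 11.2% and 10.0% of all genes. In positive nuclei Elovl3 (3.77, interval 3.42 to 4.14), Acot11 (1.41), Letmd1 (1.07) and Dio2 (0.76) were higher and Ebf2 (-1.30) and Ppara (-0.67) lower. Ppargc1a had 0.56 and 0.37 in the classes, and Cidea -0.44 and -0.73. In zero nuclei Dio2 and Acot11 were higher and Cidea, Ppargc1b, Ppara, Esrrg and Ebf2 lower.

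Other metabolic lists had positive medians in cold in the positive class. Over all genes 16.0% were higher and 13.1% lower in positive nuclei, and 11.2% and 10.0% in zero nuclei. Glucose use had 8 of 15 genes higher and 1 lower (median 0.63), with 3 of 13 higher in zero nuclei (median 0.25). Pkm was higher by 1.21 and 0.54, and Aldoa, aldolase, by 1.11 and 0.47. Respiratory chain genes had 7 of 22 higher in positive nuclei (median 0.48) and 5 of 21 in zero nuclei (median 0.20). Of 13 branched-chain amino acid genes, 6 were higher in positive nuclei (median 0.56) and 4 in zero nuclei (median 0.32). Fatty acid oxidation had medians of 0.10 and -0.06 and the citric acid cycle 0.33 and -0.03.

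White adipocyte genes had cold ratios on both sides of 0. In positive nuclei 3 of 6 were lower and 1 higher (median -0.79), beside 13.1% and 16.0% of all genes, and the median was -0.32 with at least 1 Ucp1 UMI and -0.37 without a CPM limit. In zero nuclei 3 of 7 were lower and 2 higher (median 0.22), beside 10.0% and 11.2%, and without a CPM limit the zero-class median was -1.55. Slc7a10 was higher by 1.27 in zero nuclei and had 0.09 in positive nuclei, and Cyp2e1 had 0.22 and -1.21. Lep and Nnat were lower in both, with -3.45 and -3.47 in positive and -1.55 and -2.21 in zero nuclei. Of the adrenergic genes 1 of 18 was higher and 5 lower in positive nuclei, beside 16.0% and 13.1% of all genes, and none of 17 was higher and 2 lower in zero nuclei, beside 11.2% and 10.0% (medians -0.16 and -0.35). In this list Adcy3 was higher in positive nuclei by 1.28 and had -0.01 in zero nuclei, and Nr4a1 was lower in both (-1.62 and -2.03). Of the clock genes, Per2 had 1.63 and 0.66 and Arntl 0.72 and 1.62.

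**Figure D5:**
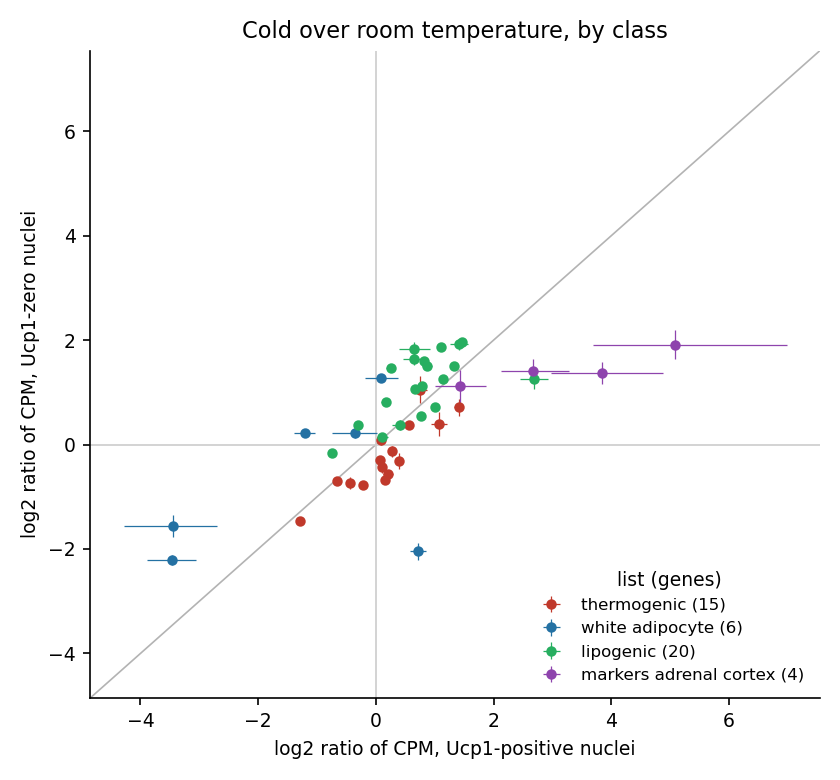
log2 ratio of CPM at 4 °C over 22 °C in Ucp1-positive (horizontal) and Ucp1-zero nuclei (vertical) for genes of 4 lists compared in both classes; lines are 95% counting intervals and the diagonal marks equal ratios. Lipogenic genes lie mostly above 0 in both classes, thermogenic genes between -1.46 and 1.41, and adrenal cortex markers above 0 in both.

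At other ages and in iBAT the same gate gave other shares. Ucp1-positive nuclei were 64 of 1054 (6.07%) in mPRAT at 1 month and 241 of 1797 (13.4%) at 2 months. Libraries were shallower there (11565118 and 26047446 UMIs), with adipocyte medians of 2683 and 3094 UMIs, so these shares are not at equal depth with 20.6%. In mPRAT at 6 months and 22 °C the share was 15.9% among nuclei with 2000 to 4000 UMIs (median 3202). It was 10.1% after thinning all adipocyte nuclei to 2000 UMIs. Ucp1-positive nuclei were 4005 of 10978 (36.5%) in iBAT at 22 °C and 10434 of 10940 (95.4%) at 4 °C. Median depths of these iBAT adipocytes were 3221.5 and 6801.5 UMIs, against 6400 in mPRAT at 22 °C, so the shares are not at equal depth. Of background nuclei in cold iBAT, 53 of 512 (10.4%) held at least 2 Ucp1 UMIs and 38.9% held any, and in iBAT at 22 °C 0 of 177 and 6.21%. In lPRAT at 6 months Ucp1-positive nuclei were 0 of 1986, where 3 nuclei, the limit that a count of 0 allows, are 0.151% and the exact upper bound is 0.186%. Both limit nuclei with at least 2 Ucp1 UMIs, not cells that express the gene. Positive and zero nuclei differed by 1.5-fold in 0.725% (higher) and 2.45% (lower) of genes in iBAT at 22 °C, against 12.7% and 15.5% in mPRAT. With at least 4000 UMIs per nucleus these shares were 1.22% and 4.26% in iBAT and 13.2% and 15.6% in mPRAT, and with at least 6000 they were 2.40% and 7.34% in iBAT and 13.6% and 15.7% in mPRAT. Positive shares at these limits were 49.9% and 60.4% in iBAT at 22 °C and 96.3% and 97.2% in iBAT at 4 °C. In mPRAT at 22 °C they were 21.7% and 21.5%. These depth limits were chosen after seeing the data. The thermogenic median was 0.44 and 0.48 in iBAT and 2.20 and 2.33 in mPRAT at these limits, and the white median in iBAT -2.72 and -2.87.

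In the younger mPRAT libraries the classes differed on the same lists. At 1 month 13 of 16 thermogenic genes were higher and 2 lower in positive nuclei (median 1.02), beside 16.6% and 20.5% of all genes, on 64 positive nuclei. At 2 months 16 of 17 were higher and 1 lower (median 1.47), beside 9.12% and 16.9%. White adipocyte genes were lower in 5 of 7 cases at 1 month and in 7 of 7 at 2 months (medians -1.30 and -2.31). Epithelial and kidney markers were also lower in positive nuclei, 4 of 4 at 1 month (median -2.06) and 3 of 4 at 2 months (median -1.18). Of 4 stromal progenitor markers compared at 1 month, 2 were higher and 1 lower. At 2 months the T cell marker Bcl11b had -2.49. The part of these markers in the class differences was not tested. In iBAT at 4 °C, where 229 nuclei were Ucp1-zero, 17 of 20 thermogenic genes were higher and 2 lower (median 1.06), beside 10.1% and 18.7% of all genes. Of 7 white adipocyte genes compared in that library, 6 were lower and 1, Npr3 at 1.06, was higher (median -4.96). There the zero class also carried markers of other cells: 6 of 6 compared stromal progenitor markers (median -4.13) and 3 of 3 mural markers were lower in positive nuclei, and Cd74 had -3.02. Their part in the class difference was not tested. Adrb3 had the lowest ratio of the thermogenic list in mPRAT at both younger ages, -1.71 and -1.45.

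Ucp1-positive mPRAT nuclei lay close to iBAT adipocytes in the thermogenic list. At 22 °C their ratio to all iBAT adipocytes had a median of 0.04, with 2 of 18 genes higher and 1 lower, beside 5.79% of all genes higher and 6.33% lower. White adipocyte genes were higher in them than in iBAT in 3 of 6 cases (median 0.76), with Cyp2e1 at a ratio of 3.66. Markers of other cells were also higher in this comparison, with Bank1 at 4.97 and Pax5 at 4.95 (B cells), Skap1 at 3.93 (T cells), Cd74 at 3.27 (macrophages) and Pecam1 at 1.74 (endothelium). Against Ucp1-positive iBAT nuclei 2 of 18 thermogenic genes were higher and none lower (median -0.11), beside 6.30% and 4.51% of all genes, and 5 of 6 white genes were higher (median 2.38). At 4 °C, none of 19 thermogenic genes was higher and 2 were lower (median -0.19), beside 7.16% and 3.80%. In that comparison 3 of 3 epithelial and kidney markers were higher (9.53 to 12.5), as were 4 of 4 adrenal cortex markers (median 9.32). Ucp1-zero nuclei had 17 of 18 thermogenic genes lower (median -1.90) and 7 of 7 white genes higher (median 4.08) over all iBAT adipocytes, beside 15.1% lower and 16.6% higher of all genes. Over lPRAT adipocytes of the same age the zero nuclei had 12 of 14 thermogenic genes higher (median 3.06) and 8 of 9 white genes lower (median -1.34), beside 11.8% and 12.1% of all genes. Positive nuclei had 17 of 18 higher (median 5.52) and 9 of 9 lower (median -3.64), beside 22.3% and 23.2%. On both lists the medians placed the zero class between the iBAT and lPRAT adipocytes. Whether this class is a mixture of nuclei was not tested. Markers of other cells moved with the depot here too. Over iBAT, the zero class had 4.84 to 5.17 for the 2 B cell markers compared, 4.52 for Skap1 and 3.49 for Cd74. Over lPRAT it had 4.94 to 5.93 for these B cell markers, 5.16 for Skap1, 2.30 for Pecam1 and 2.03 for Cd74. Cdh19 of Schwann cells had 5.10 and Muc16 of mesothelium -5.14. The positive class over lPRAT had 5.07 to 5.71 for the B cell markers, 4.57 for Skap1 and -3.45 for Muc16. The adrenal cortex markers Hsd3b1 and Cyp21a1 stood at 25.3 and 21.4 CPM in the zero class. In iBAT and lPRAT Hsd3b1 was at a count of 0, and Cyp21a1 was at 0.097 and 0.12 CPM. Their part in the depot ratios was not tested.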

How the data were processed

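Nuclei were sorted and sequenced with the 10x Single-Cell 3′ chemistry, per the labels' protocols. For each barcode the deposited files give raw UMI counts of genes, made by the authors with Cell Ranger 7.0.0, per the file headers. The build mm10 is named in the submitters' processing notes. Every barcode held at least 500 UMIs. Gene positions came from GENCODE on GRCm38, where 32158 of 32285 identifiers were found.

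Counts of the nuclei of a class were summed within a library and scaled to a total of 1e+06 without Ucp1 (CPM). Intervals of ratios come from the exact conditional binomial and those of shares from the exact Clopper-Pearson method. A count of 0 enters a ratio as 3 counts per class. List medians needed 4 compared genes. Named genes were the 12 highest and 12 lowest ratios per comparison with at least 50 CPM in the higher class and an interval without 0, leaving out gate genes, mitochondrial genes and predicted gene models, plus the genes of the lists. For these genes the nuclei with a count and the highest count of 1 nucleus were written, and for each list the class through which a gene reached the CPM limit, both after the data were seen. No clustering was made and no doublet caller was run; leaving out the deepest 5% of nuclei, or nuclei with any UMI of the 6 other-type genes, served as alternatives. The members, lists and comparisons were chosen with earlier results of these data known. The procedure was tested on simulated class sums with known folds. These held counting error only, so the simulation does not cover spread between nuclei. Other alternatives were edgeR's TMM scaling, other UMI, mitochondrial, Ucp1, CPM and fold limits, equal weight per nucleus and depth bands. Python 3.11.15, numpy 2.4.6, scipy 1.17.1, pandas 2.3.3, R 4.3.3 and edgeR 4.0.16 were used.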

Additional observations from a re-analysis of the deposited data

Results flagged for a closer look

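Of 6401 genes compared in both classes, 21 had cold ratios of at least 1.5-fold in opposite directions, and of 6473 compared at both temperatures, 9 had such class ratios. The genes here are those among the listed and ranked genes whose counting intervals leave out 0 on both sides. Npr3, the clearance receptor for natriuretic peptides, had cold ratios in opposite directions in the classes. Its log2 ratio at 4 °C over 22 °C was 0.72 in Ucp1-positive and -2.04 in Ucp1-zero nuclei. Its ratio between the classes was accordingly -1.31 at 22 °C and 1.45 at 4 °C. Me3, the mitochondrial malic enzyme, had cold ratios of 1.35 in positive and -1.30 in zero nuclei. Ripor2 had 0.69 and -2.79. Each group here is 1 library, and the differences between the classes were not tested. The classes were drawn anew in each library, so these cold ratios compare different sets of nuclei. Ripor2 was at 1245 CPM at 22 °C and 9.51 CPM at 4 °C in barcodes that failed the adipocyte gate, and the part of those cells in its ratio was not tested.

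A signal also appeared in barcodes left out of the comparisons. At 4 °C, 211 of 1043 barcodes that passed as adipocytes but exceeded 10% mitochondrial UMIs held at least 2 Ucp1 UMIs, or 20.2% (exact interval 17.8 to 22.8%), with a median depth of 9709 UMIs. In the 22 °C library 0 of 52 such barcodes did. Counting these barcodes as adipocytes gives a positive share of 43.6% at 4 °C in place of 55.4%.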

How the results depend on the processing

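No paired analysis was possible because each temperature has 1 library and the labels give no replicate numbers. Of 10245 gene values under the alternatives, 9308 moved by less than their counting interval, 925 by more, and 12 changed sign. Without a CPM limit, with a limit of 50 CPM, and with calls from 2-fold, in this order, genes higher and lower in Ucp1-positive nuclei were 1911, 563 and 330 and 3649, 620 and 617 at 22 °C. At 4 °C they were 2296, 888 and 723 and 2893, 815 and 786. Cold calls were 2628, 557 and 519 higher and 2385, 521 and 386 lower in positive nuclei, and 2187, 361 and 372 and 3151, 380 and 314 in zero nuclei. Leaving out genes higher in barcodes failing the gate, chosen after seeing the data, gave 647 lower at 22 °C, 526 lower with cold in positive nuclei, and 419 higher and 410 lower in zero nuclei. With at least 1 Ucp1 UMI for a positive nucleus, the thermogenic median at 22 °C was 2.00, the white median -2.27 at 22 °C and -3.46 at 4 °C, and the positive shares 29.5% and 61.7%. With at least 3 the shares were 15.8% and 49.1%, after thinning 10.1% and 38.5%, and without a mitochondrial limit 43.6% at 4 °C. With equal weight per nucleus the thermogenic medians were 1.94 and 2.41, the lipogenic median at 22 °C 0.084 and the white median at 4 °C -4.41. Without the deepest 5% of nuclei, the lipogenic median at 22 °C was 0.089 and the white median -3.24. The gene values that changed sign were Acss2 at 22 °C (-0.019 without the deepest nuclei, reported as 0.16) and Acly at 4 °C (-0.032 with at least 4000 UMIs, 0.06). For cold in positive nuclei they were Kcnk3 (-0.026 in depth bands, 0.10), Gk (-0.028 without nuclei holding an other-type UMI, 0.08) and Fabp4 (0.028 without the deepest, -0.11). For cold in zero nuclei they were Fabp4 (-0.0012 in depth bands and -0.015 without other-type UMIs, 0.05), Nfia (0.0018 at 5% mitochondrial, -0.06), Cfd (-0.11 in depth bands, 0.09) and Igf1r (-0.070 without the deepest, -0.040 at equal weight and -0.014 at 5% mitochondrial, 0.28). Under the same settings the insulin list in zero nuclei gave -0.026, -0.038 and -0.014 (0.17). The white list gave -1.55 without a CPM limit (0.22). The cause of these changes was not tested. TMM scaling moved the median over all genes by 0.010 to 0.059 in the 4 comparisons. Depth limits the low genes: with 791 zero nuclei at 4 °C, a count of 0 there allows 3 counts in 4704256.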
